A study of Mus musculus with 96 samples.

Results

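The oligodendrocyte lineage markers described here are 9 genes, Mbp, Mog, Mag, Mobp, Cnp, Olig1, Olig2, Pdgfra and Cspg4, taken by name from a table of read counts for 55335 mouse gene identifiers. Each of the 9 had 1 identifier in the table, and all 9 passed the filter on low counts in every fit. Their levels were compared across all 24 groups of libraries, first between VIP nuclei and total nuclei and then between light and dark.

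The libraries measured nuclear RNA of the mouse visual cortex in 48 pools of VIP nuclei and 48 pools of total nuclei, each of 50 to 100 nuclei collected by flow cytometry. All mice carried VIP flp/wt, which puts the recombinase Flp into interneurons that make vasoactive intestinal peptide, together with 2 floxed copies of 1 of 3 enhancer alleles of the growth factor gene Igf1: Igf1-E1 fl/fl, Igf1-E23 fl/fl or Igf1-E123 fl/fl. A virus with a Flp-dependent cassette behind the Syn1 promoter, which is active in neurons, gave mScarlet-KASH, a red protein of the nuclear envelope, joined either to Cre or to the inactive form dCre. The study asked how VIP neurons respond to light once the enhancers are removed, so neither virus was aimed at the cells that make the 9 markers. Virus was injected at 55 to 60 days of age. Darkness began 3 days later and lasted 10 to 12 days, and tissue was taken either after 1 h of light or still in the dark. In each fraction, line E1 had 4 light and 5 dark Cre replicates and 5 light and 3 dark dCre replicates. Line E23 had 4 of each, and line E123 had 4 of each except 3 of dark Cre, which makes 25 light and 23 dark libraries per fraction. The replicates are labelled as biological replicates.

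Oligodendrocytes wrap axons in myelin, and their precursors persist and divide in the adult cortex. Olig1 and Olig2 are transcription factors of the whole lineage. Pdgfra, the receptor for the growth factor PDGF-A, and Cspg4, the NG2 proteoglycan, are surface proteins of the precursors. Mbp, Mog, Mag, Mobp and Cnp encode proteins of the myelin sheath and are made mainly by mature oligodendrocytes. In the visual cortex, the sensory input an animal receives is known to alter the formation of new oligodendrocytes and myelin over days to weeks.

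Promoters of 7 of the 9 genes were found in a RefSeq table (build GRCm38.p6), Mbp and Olig1 being the other 2. Those of 4 myelin genes are shown because the levels of these genes moved together across libraries, as described further on. Each is the 250 bases before the annotated start, read 5′ to 3′ on the gene's strand. Mag had 3 listed starts, of which 1 is shown. Capitals mark ACAAAG or its reverse complement CTTTGT, the core of the motif that SOX factors bind, among them SOX10, which is active throughout the lineage.
Mobp, chr9:120149492-120149741, plus strand: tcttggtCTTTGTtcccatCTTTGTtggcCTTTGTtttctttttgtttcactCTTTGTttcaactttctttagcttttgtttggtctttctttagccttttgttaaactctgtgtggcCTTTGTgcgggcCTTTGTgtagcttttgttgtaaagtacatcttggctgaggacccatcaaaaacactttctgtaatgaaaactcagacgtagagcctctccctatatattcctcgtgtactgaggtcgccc
Mag, chr7:30914864-30915113, minus strand: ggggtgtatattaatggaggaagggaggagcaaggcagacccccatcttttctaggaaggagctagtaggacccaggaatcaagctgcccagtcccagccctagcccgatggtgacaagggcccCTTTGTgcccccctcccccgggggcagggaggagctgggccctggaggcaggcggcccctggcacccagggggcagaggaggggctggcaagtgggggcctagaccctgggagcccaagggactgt
Cnp, chr11:100574689-100574938, plus strand: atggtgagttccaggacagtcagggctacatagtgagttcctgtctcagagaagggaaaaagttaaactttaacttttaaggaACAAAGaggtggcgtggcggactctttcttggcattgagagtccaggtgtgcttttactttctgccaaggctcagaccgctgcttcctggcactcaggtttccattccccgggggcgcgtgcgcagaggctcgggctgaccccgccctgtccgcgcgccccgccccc
Mog, chr17:37023399-37023648, minus strand: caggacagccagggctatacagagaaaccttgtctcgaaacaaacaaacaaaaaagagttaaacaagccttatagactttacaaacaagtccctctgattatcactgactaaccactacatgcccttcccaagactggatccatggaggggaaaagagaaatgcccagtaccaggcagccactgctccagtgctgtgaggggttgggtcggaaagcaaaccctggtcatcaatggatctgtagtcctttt
The Mobp window held 6 copies, those of Mag and Cnp shown here held 1 each, and that of Mog held none. Of the Mag windows not shown, that at chr7:30914923-30915172 held 1 copy and that at chr7:30914322-30914571 held none. Of 32851 mouse promoter windows of the same length, 16.5% held at least 1 copy and 1.74% held 2 or more. The E-box CAGATG, searched on both strands, occurred once in the window of Pdgfra and in 14.4% of all windows. Such a match is a description of the letters and not of a bound site.

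VIP libraries held 1559883 to 9122515 counts and total libraries 1881731 to 8972526. A count of 0 in a single library therefore allows up to 0.329 to 1.92 CPM (counts per 1000000 counts) in VIP libraries and 0.334 to 1.59 CPM in total libraries, from 3 counts of the total and for counting error only. The gene that marks the sorted neurons, Vip, averaged 5359 ± 3291 CPM in VIP nuclei and 44.6 ± 49.2 CPM in total nuclei (SD, n = 48 each). Igf1 averaged 573 ± 206 CPM in VIP nuclei and 10.1 ± 8.78 CPM in total nuclei. Some libraries stood apart in how long genes weighed against short ones: the length index used here subtracts the mean log2 CPM of the shortest 20% of protein-coding genes from that of the longest 20%. This index was 4.18 to 4.19 in VIP nuclei and 3.63 to 4.07 in total nuclei of the dark dCre libraries numbered 1 and 2 of lines E1 and E123. Every other library had an index of 3.20 or less.

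All 9 markers were lower in VIP nuclei than in total nuclei. The VIP level was 3.12% to 46.7% of the total level by the fit, and the depth of the depletion differed between genes of the same myelin sheath. Mog and Mag, which sit on the outer and inner surface of the sheath, were the most depleted of the 5 myelin genes, at 10.1% and 5.49%. Mobp stood at 23.3%, and Cnp and Mbp were the least depleted of the 9, at 42.3% and 46.7%. The fitted values of Cspg4 (3.12%), Olig2 and Mag include VIP groups with no count, which deepen the fitted depletion. By mean CPM over libraries, the VIP level was 13.1% of the total level for Cspg4, 10.3% for Mag and 11.3% for Mog. In bulk libraries such as these, fewer cells of a type and less RNA per cell cannot be told apart.

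Among the myelin genes, Mog (myelin oligodendrocyte glycoprotein; chr17:37010743-37023398, minus strand, mm10) had a lowest, median and highest level of 0, 7.21 and 50.1 CPM in VIP nuclei, against 5.21, 74.7 and 291.2 CPM in total nuclei. All 48 VIP libraries lay below the median of the total libraries, 4 of them at 0. Its level differed by a log2 fold change of −3.31 ± 0.31 (SE; edgeR quasi-likelihood test, adjusted p = 4.35e-15). Mag, the myelin-associated glycoprotein that faces the axon (chr7:30899176-30914873, minus strand), had 0, 3.47 and 37.1 CPM in VIP nuclei, against 2.36, 48.8 and 194.2 CPM in total nuclei. It too was below the total median in 48 of 48 VIP libraries and was at 0 in 9. Its log2 fold change was −4.19 ± 0.34 (adjusted p = 1.11e-17), and −3.67 ± 0.36 in a design with additive terms, fitted because 1 VIP group had no count of Mag.

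Mobp, a small basic protein of compact myelin (chr9:120149707-120181484, plus strand), had 1.58, 25.8 and 394.7 CPM in VIP nuclei, against 26.6, 151.4 and 735.4 CPM in total nuclei. Mobp shares 79 exonic bases with Gm38642, and counts in them cannot be assigned. Its groups overlapped more, with 44 of 48 VIP libraries below the total median, and the log2 fold change was −2.10 ± 0.24 (adjusted p = 1.48e-11). Cnp, an enzyme of the cytoplasm-filled channels of the sheath (chr11:100574904-100591729, plus strand), had 16.6, 52.4 and 125.4 CPM in VIP nuclei, against 39.7, 113.7 and 378.6 CPM in total nuclei. Cnp was never at 0 in either fraction, and its log2 fold change was −1.24 ± 0.13 (adjusted p = 1.72e-13). Cnp shares 154 exonic bases with Dnajc7 on the other strand, and the library chemistry does not mark strand, so reads in these bases cannot be assigned to either gene. Dnajc7 averaged 71.0 ± 19.8 CPM in VIP nuclei and 86.2 ± 21.9 CPM in total nuclei.

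Mbp, the major basic protein of compact myelin (chr18:82475146-82585637, plus strand), was present in every library. It had 29.7, 84.8 and 1344 CPM in VIP nuclei, against 95.1, 300.9 and 916.3 CPM in total nuclei, so the highest single value belonged to a VIP library. Although 41 of 48 VIP libraries lay below the total median, 7 lay above it, and the log2 fold change of −1.10 ± 0.18 (adjusted p = 5.69e-07) was the smallest of the 9. The gene spans 110492 bases and also makes the Golli transcripts, which gene counts do not separate from those of the myelin protein.

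The transcription factor Olig1 (chr16:91269772-91271933, plus strand) had 0, 2.47 and 31.5 CPM in VIP nuclei, against 1.10, 17.0 and 72.7 CPM in total nuclei. Its log2 fold change was −2.74 ± 0.36 (adjusted p = 6.19e-10), with 45 of 48 VIP libraries below the total median. Olig1 shares 157 exonic bases with the antisense transcript Gm15966, which averaged 0.547 CPM in VIP nuclei and 2.76 CPM in total nuclei. Olig2 (chr16:91225457-91228677, plus strand) was close to the limit of detection, with a median of 0 and a highest level of 9.55 CPM in VIP nuclei, against a median of 1.86 and a highest level of 13.9 CPM in total nuclei. It had no count in 33 of 48 VIP libraries and in 9 of 48 total libraries, and its log2 fold change was −2.68 ± 0.57 (adjusted p = 5.99e-05), or −2.34 ± 0.56 in the additive design, since 3 VIP groups were entirely at 0.

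Of the precursor genes, Pdgfra (chr5:75152292-75198215, plus strand) had 0, 0.688 and 16.1 CPM in VIP nuclei, against 0, 4.95 and 45.1 CPM in total nuclei. The fractions overlapped most for this gene, with 36 of 48 VIP libraries below the total median and 21 VIP and 10 total libraries at 0, and the log2 fold change was −2.19 ± 0.52 (adjusted p = 0.000374). Pdgfra shares 652 exonic bases with 3 other annotated genes, and counts in them cannot be assigned. Pdgfra is also made by fibroblasts of the vessel walls and meninges. The summed level of 7 fibroblast markers was 0 to 10.4 CPM in VIP nuclei and 0 to 69.2 CPM in total nuclei. Of these, Dcn was at 0 in 40 of 48 VIP libraries and 27 of 48 total libraries, and Lum in 48 and 38. Cspg4 (chr9:56865033-56899870, plus strand) had a median of 0 and a highest level of 6.28 CPM in VIP nuclei, against 2.13 and 44.0 CPM in total nuclei. It was at 0 in 38 of 48 VIP libraries and in 7 of 48 total libraries. The log2 fold change was −5.00 ± 0.64 (adjusted p = 4.16e-10), and −4.21 ± 0.64 in the additive design, since 6 VIP groups were entirely at 0. Cspg4 is also made by pericytes of capillaries, whose marker Rgs5 had a median of 0.888 CPM in VIP nuclei and 0 CPM in total nuclei. Whether fibroblasts or pericytes added to either gene was not tested.

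**Figure D1:**
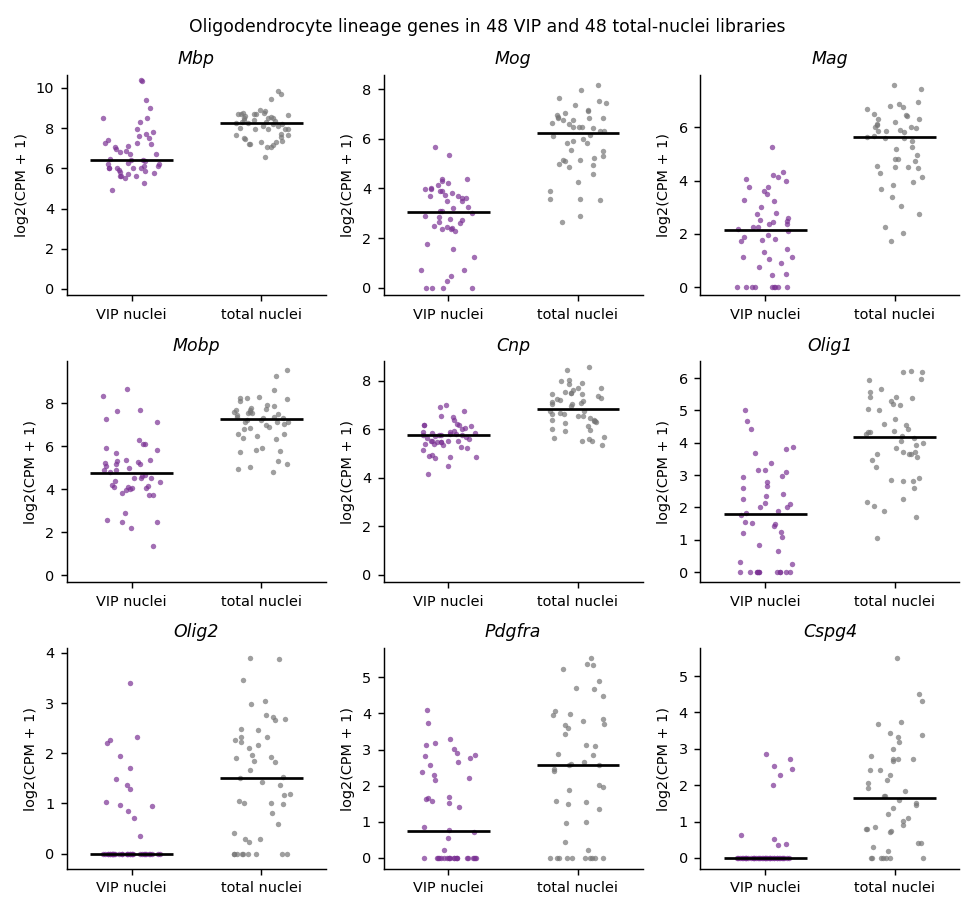
Level of each of the 9 markers in the 48 VIP libraries (left) and the 48 total libraries (right), as log2(CPM + 1), with a bar at the median. The VIP medians lie below the total medians in all 9 panels, while the Mbp panel shows the few VIP libraries that reach the highest total values.

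Over the 9 markers the median log2 fold change was −2.68, against −0.11 over all genes tested. Of 22926 genes, 35.5% differed between the fractions, 20.7% being lower and 14.8% higher in VIP nuclei, which is the background to the 9 of 9 called here. When each of the 12 conditions (line, virus and light) was tested alone, 27 of 108 comparisons passed, all of them lower in VIP nuclei, against a background of 4.73% called and 2.29% called lower. Mag passed in 8 conditions, Mog in 7, Cnp in 6, Mobp in 3, Mbp in 2 and Cspg4 in 1, and Olig1, Olig2 and Pdgfra in none. The mean was nonetheless lower in VIP nuclei in 10 to 12 of the 12 conditions for each of the 9 genes. All VIP libraries lay below all total libraries in 9 conditions for Mog and Mag, 6 for Mobp and 5 for Mbp and Cspg4. This held in 4 conditions for Cnp, Olig1 and Olig2 and in 2 for Pdgfra. The share of all genes separated in this way was not computed, so these counts are a description. In the light conditions of line E23 no marker passed, and the VIP mean of Mbp was above the total mean with both viruses. Mobp (111.7 and 72.1 CPM in VIP and total nuclei), Olig2 (1.82 and 0.634 CPM) and Pdgfra (1.86 and 1.60 CPM) also had the higher mean in VIP nuclei of E23 light dCre, and Cspg4 (2.98 and 1.55 CPM) in those of E23 light Cre.

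Per kilobase of exon, the order of levels in total nuclei was Mog (49.0 CPM), Mbp (37.4), Cnp (36.6), Mobp (25.5), Mag (13.3), Olig1 (10.8), Olig2 (1.13), Pdgfra (0.940) and Cspg4 (0.394). Each neighbour in this order differed by less than the larger SD of the pair over libraries, except Olig1 and Olig2. In VIP nuclei the order per kilobase was Mbp (21.9 CPM), Cnp (14.998), Mobp (7.69), Mog (5.55), Olig1 (2.15), Mag (1.36), Olig2 (0.293), Pdgfra (0.259) and Cspg4 (0.0515). Mog thus led in total nuclei and stood below Mbp, Cnp and Mobp in VIP nuclei, while the 3 genes at the low end kept their order, and all neighbours in the VIP order differed by less than the larger SD of the pair.

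The change of order was then examined as ratios of counts within a library, which depend on library size only through the 0.5 added to each count. These ratios were chosen after the order had been seen in the same libraries, so their p-values are no independent support for it. Summed over libraries, there were 20.6 Mbp counts per Mog count in VIP nuclei and 3.75 in total nuclei. The mean log2 ratio was higher by 2.38 in VIP nuclei and was higher in 12 of 12 conditions (permutation of the fraction within conditions, two-sided, adjusted p = 3e-05 over 12 ratios; p = 1e-05 is the smallest that 100000 permutations can give). Cnp per Mog moved the same way, with 6.46 in VIP nuclei and 1.58 in total nuclei, a log2 difference of 2.51 that was positive in 12 of 12 conditions (permutation adjusted p = 3e-05). Mobp per Mog was 5.71 in VIP nuclei and 2.09 in total nuclei, a log2 difference of 1.36 that was positive in 10 of 12 conditions (permutation adjusted p = 0.000312). The median ratio over libraries was closer for this pair of genes, at 3.62 in VIP nuclei and 2.27 in total nuclei, and in line E1 it was 2.36 and 2.17. Mag per Mog was 0.634 in VIP nuclei and 0.645 in total nuclei, and its mean log2 ratio differed by −0.54 (permutation adjusted p = 0.332). Among the other genes, the mean log2 ratio to Mog was higher in VIP nuclei by 1.35 for Olig2 (11 of 12 conditions, permutation adjusted p = 0.00954) and by 1.77 for Pdgfra (10 of 12 conditions, 0.012). Both had many libraries at 0, where the ratio is set by the Mog count and the added 0.5. In such libraries a lower Mog count alone raises the ratio. The ratios of Olig1 and Cspg4 to Mog did not pass (permutation adjusted p = 0.404 for both). In these libraries Mbp, Cnp and Mobp were less depleted than Mog, the pattern that led to these ratios, while the depletion of Mag was not shown to differ from that of Mog.

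**Figure D2:**
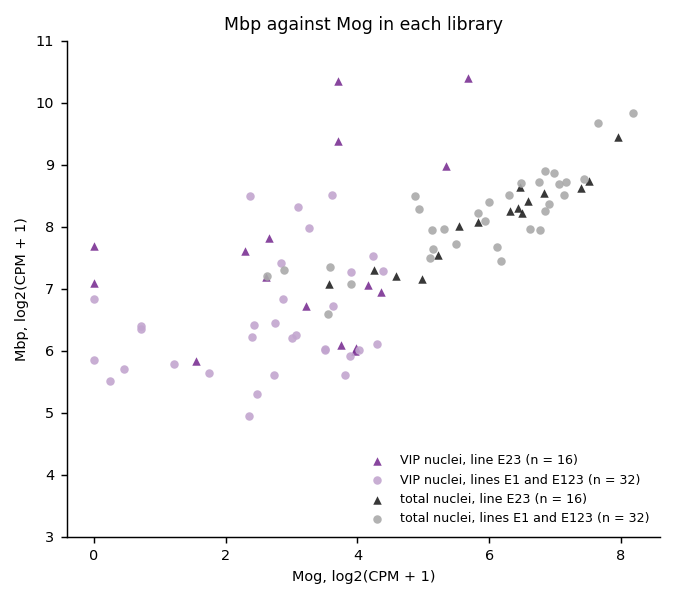
Mbp against Mog in each library, both as log2(CPM + 1), with VIP and total libraries in different colours and E23 libraries as triangles. VIP libraries spread to the left along Mog, with 4 of them at 0, and downward along Mbp. Of 48 VIP libraries, 18 lie below the lowest total library for Mog and 25 for Mbp. The 4 highest VIP values of Mbp are triangles.

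Most genes of the myelinating, committed and transcription factor lists were also lower in VIP nuclei, while the precursor list was mixed. Of 22 genes of myelinating oligodendrocytes, 19 were lower and none was higher (median log2 fold change −3.49). Among those with the smallest p were the transcription factor St18 (−3.99 ± 0.27, adjusted p = 7.66e-22), Prr5l (−4.98 ± 0.36, 1.56e-20) and the link protein Hapln2 (−5.32 ± 0.41, 1.23e-18), by the same edgeR test. Of 6 genes of newly committed oligodendrocytes, 4 were lower and none was higher. They were Tcf7l2 (−3.68 ± 0.42), Enpp6 (−3.97 ± 0.46), Bcas1 (−2.14 ± 0.33) and Gpr17 (−3.89 ± 0.65). Of 7 further lineage transcription factors, 5 were lower, led by Sox10 (−5.15 ± 0.48) and Myrf (−4.34 ± 0.43), the regulator that starts myelin gene expression. Zfp536, a zinc finger gene also active in neurons, was higher by 2.58 ± 0.11. Of 13 genes of precursors, 5 were lower and 2 were higher, and the share of higher genes was near the 14.8% over all genes. Ptprz1, a receptor phosphatase, was among the higher ones, with 426.0 ± 137.0 CPM in VIP nuclei and 97.9 ± 62.8 CPM in total nuclei, as was Cacng4 (3.06 ± 0.27). Tnr (−1.88 ± 0.12) and Xylt1 (−2.11 ± 0.21) were the 2 lower precursor genes with the smallest p. The 9 markers are not part of these lists.

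Among markers of other cells, all 11 microglial genes were lower in VIP nuclei, with a summed level of 84.4 to 261.1 CPM in VIP nuclei and 130.5 to 1363 CPM in total nuclei. Of 12 genes of excitatory neurons, 11 were lower and 1 was higher, and Slc17a7 averaged 16.1 ± 12.0 CPM in VIP nuclei and 67.3 ± 17.3 CPM in total nuclei. Of 10 astrocyte genes, 2 were lower, a share close to the 20.7% of all genes called lower, with sums of 249.1 to 2910 CPM in VIP nuclei and 315.9 to 1032 CPM in total nuclei. All 12 VIP interneuron genes were higher, and none of the 7 fibroblast genes passed. Of 10 endothelial and mural genes, 2 were higher in VIP nuclei and none was lower (median log2 fold change 0.48), with sums of 1.23 to 613.3 CPM in VIP nuclei and 4.65 to 150.2 CPM in total nuclei.

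A few VIP libraries of line E23 carried the highest Mbp values. E23 light dCre replicate 1 had 1344 CPM, E23 light Cre replicates 3 and 4 had 1304 and 503.9 CPM, and E23 dark Cre replicate 2 had 667.5 CPM. In the same 4 libraries Mobp stood at 315.5, 394.7, 197.3 and 201.1 CPM, all above the total median of 151.4 CPM, whereas Mog stood at 50.1, 12.1, 39.6 and 12.0 CPM, all below its total median of 74.7 CPM. Markers of other cells were high there too. The summed astrocyte genes were 1655, 1157, 975.1 and 711.6 CPM (VIP median 388.9), the excitatory neuron genes 2732, 1837, 1345 and 1677 CPM (VIP median 1009) and the microglial genes 214.6, 261.1, 174.7 and 171.9 CPM (VIP median 139.9). The length index of these 4 libraries was 1.43 to 1.72, and the part of any of these in the Mbp levels was not tested.

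The lines were then compared within each fraction, a comparison chosen after these levels had been seen. In VIP nuclei, Mbp had a lowest, median and highest level of 55.7, 140.5 and 1344 CPM in E23 (n = 16), against 29.7, 68.0 and 183.8 CPM in E1 (n = 17) and 38.2, 104.4 and 364.3 CPM in E123 (n = 15). The lines overlapped at the low end and parted at the high end. Between E23 and E1, 2 of 9 markers passed, against a background of 0.661% of all genes called and 0.437% called higher, and both were higher in E23. They were Mbp (log2 fold change 1.95 ± 0.39, edgeR adjusted p = 0.0124) and Mobp (2.21 ± 0.47, adjusted p = 0.0191). Mobp had 12.3, 37.7 and 394.7 CPM in E23 and 1.58, 19.4 and 50.0 CPM in E1. Between E23 and E123, 3 of 9 passed, against a background of 12.7% called and 5.94% called higher, all higher in E23. These were Mbp (1.26 ± 0.40, edgeR adjusted p = 0.0299), Cnp (0.75 ± 0.19, 0.00591) and Olig1 (2.66 ± 0.83, 0.0248). Cnp had 33.8, 64.0 and 125.4 CPM in E23 and 16.6, 39.2 and 89.0 CPM in E123. Between E1 and E123 none passed (background 2.39%), with 1 at an unadjusted p under 0.05 and none by DESeq2 or limma voom.

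The length index averaged 1.94 ± 0.51 in E23, 2.23 ± 0.83 in E1 and 2.85 ± 0.72 in E123 VIP nuclei. With the index as a covariate none of the 9 passed in either comparison. For E23 against E1 the fitted difference with that covariate was still 1.40 for Mbp (adjusted p = 0.22) and 1.49 for Mobp (0.275), the smallest of any alternative run. By limma voom none passed for E23 against E1, with 1.43 for Mbp and 1.84 for Mobp. Without the 4 dark dCre libraries of high index, none passed for E23 against E1 (Mbp 2.15, Mobp 2.5) and 1, Cnp, for E23 against E123. The part of the index in the differences was not tested. The Mbp difference between E23 and E123 passed without each of 25 single libraries and did not pass without 6 others. These were E23 light dCre replicate 1 (0.86, adjusted p = 0.105), E23 light Cre replicate 3 (0.99), E23 dark Cre replicate 2 (1.03), E23 dark dCre replicate 2 (1.15) and E123 dark Cre replicates 1 and 2 (1.17 and 1.18). Olig1 did not pass without E23 dark Cre replicate 2 (2.37), E23 dark dCre replicate 4 (2.43) or E123 dark Cre replicates 1 and 2 (2.54 and 2.57). Mobp between E23 and E1 failed only without E1 dark dCre replicate 2 (2.10, adjusted p = 0.0507), and Mbp between these lines and Cnp between E23 and E123 passed without every single library.

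In total nuclei none of the 9 passed between E23 and E1 (background 0.174%), E23 and E123 (7.5%) or E1 and E123 (1.18%), none had an unadjusted p under 0.05, and none passed by DESeq2 or limma voom. Mbp in total nuclei differed by −0.00 ± 0.21 between E23 and E1 and by −0.12 ± 0.21 between E23 and E123.

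Whether 1 h of light changes the markers was asked first in total nuclei, where they are most abundant. None of the 9 passed, against a background of 7.78% of 21213 genes, and 2 had an unadjusted p under 0.05 in edgeR. None passed by DESeq2 or limma voom. The median log2 fold change was 0.35 over the 9, against −0.03 over all genes. In the same libraries all 12 immediate-early genes, the first transcripts that neuronal activity induces, rose with a median of 2.43.

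In total nuclei, Mbp had a lowest, median and highest level of 133.5, 334.9 and 916.3 CPM after light, against 95.1, 269.8 and 694.2 CPM in the dark (n = 25 and 23). The groups overlapped over nearly their whole range, and the log2 fold change was 0.35 ± 0.17 (edgeR adjusted p = 0.227). Mobp had 29.3, 175.9 and 735.4 CPM after light and 26.6, 139.5 and 288.8 CPM in the dark, with a log2 fold change of 0.57 ± 0.28 (adjusted p = 0.232). Mog (0.15 ± 0.35, adjusted p = 0.899), Mag (0.38 ± 0.36, 0.612) and Cnp (0.06 ± 0.21, 0.973) had smaller changes than Mobp. Olig1 had a median of 18.1 CPM after light and 14.4 CPM in the dark (0.55 ± 0.36, edgeR adjusted p = 0.405), and Olig2 had 1.25 and 2.77 CPM (0.64 ± 0.56, 0.575). For Olig2 the median and the fitted change differ in sign. Pdgfra had a median of 4.98 CPM after light and 4.49 CPM in the dark (0.33 ± 0.67), and Cspg4 had 2.00 and 2.26 CPM (−0.03 ± 0.57). The SE was 0.17 for Mbp, 0.21 for Cnp, 0.28 for Mobp and 0.35 to 0.36 for Mog, Mag and Olig1. It was 0.56 to 0.67 for Olig2, Pdgfra and Cspg4. Even in Mbp the fitted change did not pass, so a change of that size was not detectable in the genes of larger SE.

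The wider lineage gave 1 call. None of 22 myelinating, 13 precursor or 6 committed oligodendrocyte genes passed, and of 7 lineage transcription factors Sox8 rose by 0.80 ± 0.19 (edgeR adjusted p = 0.00587). Between VIP and total nuclei Sox8 did not pass (0.10 ± 0.15, adjusted p = 0.758). Separated by virus, none of the 9 markers passed with Cre (background 1.49%) or with dCre (5.69%), none had an unadjusted p under 0.05 in either, and none passed by DESeq2 or limma voom. The difference of the light response between Cre and dCre passed for none of the 9, nor for any other gene (background 0%), and none of the 9 reached an unadjusted p under 0.05 or passed by the other tools.

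**Figure D3:**
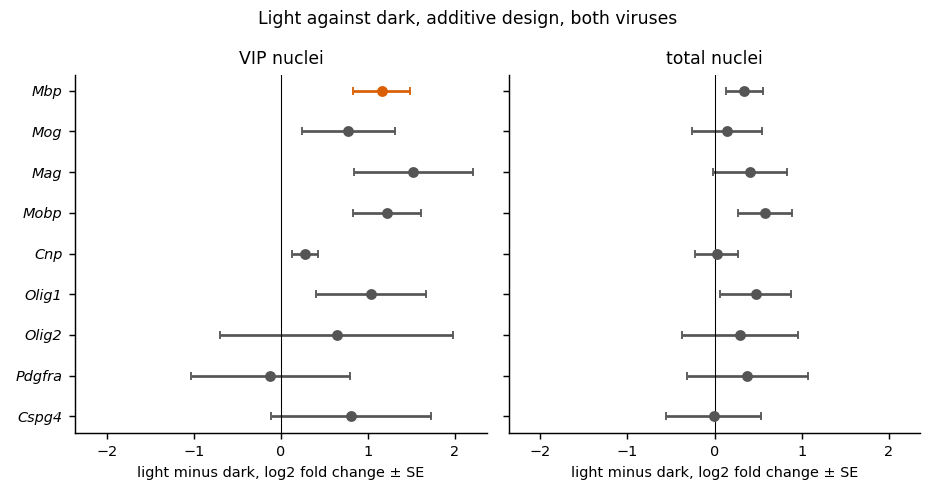
Log2 fold change of light against dark for each marker, both viruses together, in VIP nuclei (left) and total nuclei (right), with bars of 1 SE, from the additive design. In total nuclei the 9 estimates lie around and slightly above 0 and none passes, while in VIP nuclei Mbp passes in this design.

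The fitted light response in total nuclei had opposite signs in different lines, although no difference between lines passed. In E23 all 9 fitted changes were below 0 with both viruses, whereas in E1 and E123 the 5 myelin genes had changes above 0 with both viruses. Mbp averaged 227.1 ± 81.2 CPM after light (SD, n = 8) and 375.7 ± 157.9 CPM in the dark (n = 8) in E23. In E1 it averaged 369.2 ± 90.7 CPM after light (n = 9) and 234.4 ± 114.8 CPM in the dark (n = 8), and in E123 458.3 ± 264.5 CPM (n = 8) and 214.9 ± 58.9 CPM (n = 7). Mog followed the same pattern, with 49.7 ± 33.6 CPM after light and 121.1 ± 72.3 CPM in the dark in E23, and 97.5 ± 39.1 CPM after light and 67.0 ± 66.2 CPM in the dark in E1. In none of the 6 combinations of line and virus did the light libraries of Mbp or Mog all lie to one side of the dark libraries. For Mag and Olig2 all light libraries lay below all dark ones in 1 combination, E23 dCre, with 4 libraries on each side. The share of all genes separated in this way was not computed, so this is a description only.

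The difference between lines was tested after these means had been seen. For E23 minus E1 none of the 9 passed (background 0.0189%), 6 had an unadjusted p under 0.05, and none passed by DESeq2 or limma voom. Mbp differed by −1.46 ± 0.42 (edgeR adjusted p = 0.213) and Mag by −2.69 ± 0.88 (0.261). For E23 minus E123 none passed in edgeR (background 0.00943%), 6 had an unadjusted p under 0.05, and 3 passed by DESeq2 and none by limma voom. Mbp differed by −1.84 ± 0.43 (edgeR adjusted p = 0.104) and Cnp by −1.77 ± 0.53 (0.187). For E1 minus E123 none passed (background 0%), none had an unadjusted p under 0.05, and none passed by the other tools. Within single combinations of line and virus, 0 of 54 comparisons passed (background 0.757%), 7 had an unadjusted p under 0.05, and none passed by DESeq2 or limma voom. The length index of total libraries averaged 2.01 ± 0.38 after light and 2.34 ± 0.80 in the dark. The 4 total libraries of high index were dark dCre libraries of lines E1 and E123, and none was of E23. The part of the index in the opposite signs was not tested.

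**Figure D4:**
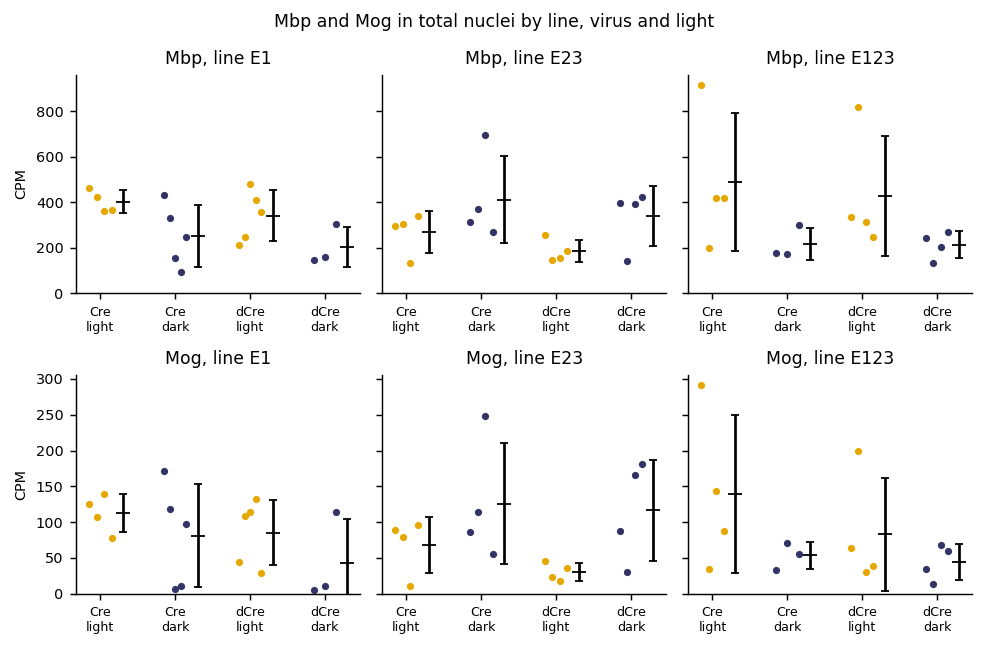
Mbp (top) and Mog (bottom) in total nuclei, in CPM, by line (columns), with light left of dark and Cre left of dCre within each. Points are libraries and ticks are means with bars of 1 SD, cut at 0. With both viruses the light mean is below the dark mean in E23 and above it in E1 and E123, and the light and dark libraries overlap in all 6 combinations.

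In VIP nuclei, where the markers are low, 3 of 9 rose after light, against a background of 5.99% of genes called and 3.46% called higher. Mbp had a lowest, median and highest level of 49.0, 113.6 and 1344 CPM after light, against 29.7, 67.3 and 667.5 CPM in the dark, and its mean was higher after light in 6 of 6 combinations of line and virus. The log2 fold change was 1.17 ± 0.32 (edgeR adjusted p = 0.0232). Mobp had 5.04, 32.7 and 394.7 CPM after light and 1.58, 19.4 and 201.1 CPM in the dark (1.23 ± 0.38, adjusted p = 0.0475). Mag had 0, 4.22 and 37.1 CPM after light and 0, 2.41 and 17.5 CPM in the dark (2.03 ± 0.57, adjusted p = 0.0229). The light and dark libraries overlapped for all 3 genes, and the highest libraries of Mbp and Mobp after light were the E23 libraries named above. Mog (0.85 ± 0.47, edgeR adjusted p = 0.303), Cnp (0.28 ± 0.15, 0.297) and Olig1 (1.18 ± 0.63, 0.279) did not pass. Pdgfra differed by −0.12 ± 0.92 in the additive design, in which Olig2 and Cspg4 did not pass either.

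These calls did not hold under several settings. None of the 3 passed by limma voom, with the length index as a covariate, or without the 4 dark dCre libraries of high index, where Mbp differed by 1.32 (adjusted p = 0.119). In the additive design only Mbp passed, and Mag, whose 3 E1 dark dCre libraries were all at 0, differed by 1.52 ± 0.68 (adjusted p = 0.209). Without E23 light dCre replicate 1 or without E23 light Cre replicate 3, Mag alone passed, and Mbp differed by 0.90 (adjusted p = 0.0541) and 0.99 (0.0506). Mobp lost its call in 31 of 48 fits that left out 1 library. Mag kept its call in all 48, but its E1 dark dCre group was at 0 in each of them. These fits therefore do not test how far the Mag call rests on that group. The length index of VIP libraries averaged 2.12 ± 0.55 after light and 2.55 ± 0.94 in the dark, and in dCre libraries 2.25 ± 0.66 and 3.05 ± 0.99. Genes of other cells passed with light too: 3 of 10 astrocyte genes, 1 of 11 microglial genes and 3 of 12 VIP interneuron genes were higher, and of 12 excitatory neuron genes 2 were higher and 1 was lower. In the wider lineage, 2 of 22 myelinating and 1 of 5 tested committed oligodendrocyte genes were higher, 1 of 12 tested precursor genes was lower and none of 7 lineage transcription factors passed. Summed levels were 258.4 to 2910 CPM after light and 249.1 to 793.2 CPM in the dark for astrocyte genes, and 98.0 to 261.1 CPM and 84.4 to 194.2 CPM for microglial genes. The 7 fibroblast genes summed to 0 to 10.1 CPM after light and 0 to 10.4 CPM in the dark. The part of the length index or of other cells in these 3 calls was not tested.

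By virus, Mbp rose in dCre VIP nuclei (1.58 ± 0.46, edgeR adjusted p = 0.0349), the only 1 of 9 to do so (background 6.27% called and 3.97% called higher), and none passed in Cre VIP nuclei (background 0.35%), where 1 had an unadjusted p under 0.05 and none passed by DESeq2 or limma voom. That Mbp call was lost in 10 of 24 fits without 1 library, with values of 1.03 to 1.73. Within single combinations of line and virus, 1 of 54 comparisons passed (background 0.712%), Mag in E1 dCre, where the light libraries had 0, 5.96, 2.92, 4.22 and 2.52 CPM and the 3 dark libraries 0 CPM. The light response was not shown to differ between VIP and total nuclei: none of the 9 passed (background 0.0872%), 2 had an unadjusted p under 0.05, and none passed by DESeq2 or limma voom. The light response in VIP nuclei was not shown to differ between Cre and dCre either, with none of 9 passing (background 0.00486%), none at an unadjusted p under 0.05 and none by the other tools. For Mbp the response in VIP nuclei exceeded that in total nuclei by 0.81 ± 0.36 (edgeR adjusted p = 0.703).

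Cre was compared with dCre to see whether the enhancer deletion in VIP neurons went with a difference in the markers. In total nuclei none of the 9 passed (background 0.0283%), 2 had an unadjusted p under 0.05, and none passed by DESeq2 or limma voom. The fitted change was above 0 for 8 of 9. Pdgfra had a lowest, median and highest level of 0, 8.75 and 45.1 CPM with Cre and 0, 3.61 and 40.3 CPM with dCre (1.61 ± 0.68, edgeR adjusted p = 0.392), and Olig2 had 0, 2.94 and 13.6 CPM with Cre and 0, 1.49 and 13.9 CPM with dCre (1.35 ± 0.57, 0.390). In VIP nuclei none passed in edgeR (background 3.74%), 4 had an unadjusted p under 0.05, and 1 passed by DESeq2 and 1 by limma voom. Pdgfra had 0, 3.77 and 16.1 CPM with Cre and 0, 0 and 5.78 CPM with dCre (2.60 ± 0.80, edgeR adjusted p = 0.0524). The summed 22 myelinating genes had a median of 570.3 CPM with Cre and 372.6 CPM with dCre in VIP nuclei, and 2 of them passed as higher. The fitted change was above 0 for 9 of 9 markers in VIP nuclei. There 2 of 10 astrocyte genes also passed as higher with Cre, and the length index of dark VIP libraries averaged 2.08 ± 0.61 with Cre and 3.05 ± 0.99 with dCre. The part of either in the markers was not tested.

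Across the 48 total libraries the markers of 1 stage moved together from library to library. Levels were taken as log2(CPM + 1) less the mean of the library's group, and 28 of 36 pairs passed by Pearson's r and 27 by Spearman's rho (permutation within groups, two-sided, adjusted over 36 pairs). All 10 pairs of myelin genes passed, with r of 0.803 to 0.918 and rho of 0.810 to 0.915, and r of 0.785 to 0.900 without the 2 libraries farthest from the median. Olig1 followed the myelin genes with r of 0.767 (Mag) to 0.870 (Mobp). Olig1 also ran with Pdgfra (r = 0.600) and Cspg4 (r = 0.475), and both pairs passed. Of 10 pairs of a myelin gene with Olig1 or Olig2, 9 passed, as did 3 of 4 pairs of Olig1 or Olig2 with Pdgfra or Cspg4. Pdgfra and Cspg4 had an r of 0.776 and a rho of 0.785 (permutation adjusted p = 2.25e-05 for both), and r was 0.752 without those 2 libraries. Between the myelin genes and these 2 precursor genes, r was 0.10 to 0.456 and 4 of 10 pairs passed. Levels of the myelin genes also ran with the length index over the total libraries, with r of −0.230 (Mobp) to −0.574 (Cnp), and those of Pdgfra and Cspg4 had r of 0.123 and 0.250 with it. These 9 values are a description, and the part of the index in the pairs was not tested.

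**Figure D5:**
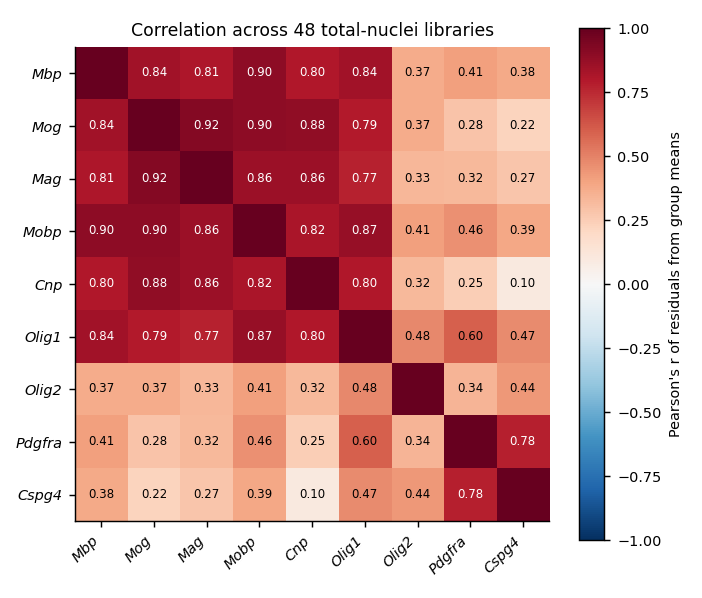
Pearson's r between the 9 markers over 48 total libraries, from residuals of log2(CPM + 1) about the group means. The block of 5 myelin genes and Olig1 stands at 0.767 or above, and Pdgfra and Cspg4 form a pair at 0.776.

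In VIP libraries the 6 markers that are most often detected gave 15 pairs, of which 4 passed by both measures. Mbp and Mobp had an r of 0.801 and a rho of 0.741 (permutation adjusted p = 0.00015 and 0.0006), and r was 0.751 without the 2 farthest libraries. Mobp and Cnp had an r of 0.660 (rho 0.613), Mbp and Cnp 0.571 (rho 0.514), and Mobp and Olig1 0.446 (rho 0.446). The levels of these 4 genes ran with the length index over VIP libraries, with r of −0.671 for Cnp, −0.567 for Olig1, −0.459 for Mobp and −0.383 for Mbp, and its part in the pairs was not tested. Mbp and Mog, at 0.837 in total libraries, had an r of 0.171 in VIP libraries (rho 0.151, permutation adjusted p = 0.423). Libraries of the 2 fractions that share a group and number were also compared, and none of the 9 genes passed (adjusted permutation p of 0.292 or more for r). For Mbp that r was 0.019 (rho 0.113).

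Among the protein-coding genes most like the 5 myelin markers over the 48 total libraries, of 11250 with a mean of at least 5 CPM, were Cldn11 (r = 0.938), Trf (0.921), Car2 (0.906) and Fa2h (0.894). Those most like Pdgfra and Cspg4 were Matn4 (0.747), Gpr17 (0.721), Lims2 (0.712), Ptprz1 (0.675) and Vcan (0.674). These correlations across libraries are given as a description. Cldn11, a tight junction protein of myelin, averaged 10.0 ± 9.73 CPM in VIP nuclei and 106.1 ± 79.0 CPM in total nuclei.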

How the data were processed

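Nuclear RNA was measured in 96 libraries from 24 groups, with no molecular identifiers, so reads are not independent molecules. The deposited values are raw read counts per gene; per the submitters' processing notes cutadapt 1.18, STAR 2.5.3a and HOMER 4.9.1 were used with mm10, while the annotation release and strand setting are not given in the sources used here. Of 55335 identifiers, 55154 matched GENCODE mouse annotation of that build, and the 181 others held 0.0225% of counts. Gene counts were fitted with edgeR 4.0.16 (quasi-likelihood, TMM, filterByExpr, robust, 1 coefficient per group; R 4.3.3) in VIP libraries (20585 genes), total libraries (21213) or both (22926), with Benjamini-Hochberg adjustment over all genes of a fit and a threshold of 0.05. Fits were tested on simulated data with 1 dispersion for all genes and no group set to 0, which does not cover markers with whole groups at 0. CPM used TMM sizes. Alternatives were DESeq2 1.42.0, limma 3.58.1 (voom), other scaling and filters, a length index covariate, a replicate block and leaving libraries out. Fits without 1 library or 1 replicate number kept the genes and the trended dispersion of the main fit. Ratios used counts + 0.5 and correlations log2(CPM + 1), with 100000 permutations. Additive designs, line comparisons, ratios and VIP correlations were chosen after seeing the data. The 9 members and all gene lists were chosen with earlier results of these data known. Named genes outside the 9 were up to 4 per lineage list with the smallest p among those that passed, and the 5 most correlated genes for each profile. A gene that these rules name is not reported here. Vip and Igf1 check the labels, and genes that overlap a member or mark another cell type (Dnajc7, Gm15966, Gm38642, Slc17a7, Dcn, Lum, Rgs5) were named after their values were seen. No 2 libraries of a group, in 148 pairs, agreed within sampling noise.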

Additional observations from a re-analysis of the deposited data

Results flagged for a closer look

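In 6 of 149 sets of libraries, each 1 marker in 1 group of 4 or 5, a single library lay far from the others of its group; chance gives about 5% of sets, and 31 further sets with 2 or more libraries at 0 were not tested. In total nuclei, E23 light Cre replicate 3 was low for both Mbp, at 133.5 CPM with the others at 298.4 to 338.3 CPM, and Mog, at 10.8 CPM with the others at 78.5 to 95.4 CPM. E23 dark dCre replicate 2 was low for Mbp in total nuclei, at 141.2 CPM with the others at 392.0 to 424.0 CPM. Cspg4 in total nuclei of E23 light Cre stood at 5.55 CPM in replicate 2 and at 0 to 0.338 CPM in the others. In VIP nuclei of E1 dark Cre, Mbp stood at 153.9 CPM in replicate 2, with the others at 56.8 to 74.8 CPM, and Mog was at 0 CPM in replicate 3, with the others at 7.42 to 18.6 CPM.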

How the results depend on the processing

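The depletion of all 9 markers in VIP nuclei held under all 15 alternatives, the replicate block among them. Within single conditions the 27 calls became 44 by DESeq2 and 11 to 23 when 1 replicate number was left out. With no filter on low counts, light in total nuclei gave 3 calls with both viruses, 2 with Cre, 1 with dCre and 16 of 54 within line and virus, Cre against dCre gave 5 in total nuclei and 4 in VIP nuclei, and light in Cre VIP nuclei gave 1. Leaving out 1 library gave 0 to 1 calls for light in total nuclei and 0 to 3 within line and virus, the highest of both without E1 dark dCre replicate 3. The 3 calls for light in VIP nuclei became 1 in the additive design, 0 by limma voom, with the length index or without the 4 dark dCre libraries of high index, and 1 to 3 without 1 library. For dCre alone the 1 call became 2 by DESeq2, in the additive design, with no filter or scaling by total counts only, 0 by limma voom, with the length index or without those 4 libraries, and 0 to 2 without 1 library. Cre against dCre in VIP nuclei gave 1 by DESeq2, by limma voom and by total counts only, and 0 to 2 without 1 library. For E23 against E123 in VIP nuclei the 3 calls became 5 by DESeq2, 2 by limma voom and 4 with the replicate block. The correlated pairs in total nuclei numbered 19 to 32, against 28, and 19 to 31 without 1 replicate number. Replicate numbers did not meet the rule for pairs, an r over 0.1 in every pair, although the data hint at pairing of the fractions: VIP and total libraries of 1 number had a median r of 0.106, over 0.1 in 26 of 48, against a median of −0.024 and 13 of 148 over 0.1 for other numbers, 31 of 48 correlated best with their own number, and sex labels matched in 48 of 48. Same-numbered light and dark libraries were over 0.1 in 10 of 44. In fits of both fractions the replicate block joined the VIP and total library of 1 condition and number. In fits of 1 fraction it joined all libraries of 1 number, whatever their line, virus or light, so there it is no check of pairs. With the replicate block, 9 markers passed between fractions, 24 within conditions, 2 for light in VIP nuclei, 1 for light in dCre VIP nuclei, and 0 in the other comparisons planned. No marker called between the fractions over all conditions, for light in VIP nuclei over the lines or between lines reversed its direction. For results that did not pass and for single conditions, directions were not compared. Olig2, Pdgfra and Cspg4 had no count in 33, 21 and 38 of 48 VIP libraries, where a lower level is not detectable. The causes of these changes were not tested.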
